A study of Sus scrofa and Rattus norvegicus with 8 samples.

Results

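Chemokines, interleukins and their receptors were described in white adipose tissue of pigs. The members were the genes of the pig table whose symbols start with CCL, CXCL, CCR or CXCR and a number, or with IL and a number, and 96 of 14844 named nuclear genes met this rule. They were 49 ligands, 46 receptors and IL4I1, an L-amino acid oxidase that only shares the IL letters. Another 8 symbols of the name table met the rule without a row in the pig table (CCL11, CCL22, CCR8, IL10RB, IL17C, IL17F, IL20RB and IL26) and were not analysed here. IL1B, IL1RN, CCR2 and CXCR2 were likewise not analysed here.

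RNA-seq was performed on 6 pigs, adult Bama females of 2 years, from the upper layer of backfat, the outer sheet of subcutaneous fat over the back. No treatment or allele is labelled, so the pigs formed 1 group and no test between groups was possible. Total RNA was depleted of ribosomal RNA. The values are TPM, a length-corrected share of a library's transcripts on a fixed total, which can be compared between genes but keep no read depth, so no counting error can be given. The error is therefore the SD over the 6 pigs, which includes technical spread. In bulk tissue, fewer cells of a type and less RNA per cell cannot be told apart.

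Replicates 4 and 5 stood apart before any member was read. Named nuclear genes held 3.34% and 4.73% of their TPM, against 24.1% to 26.3% in replicates 1, 2, 3 and 6. Each library's named nuclear genes were therefore also rescaled to a total of 1000000, called rescaled TPM. The median named nuclear gene was still lower there, at 11.7 and 11.2 rescaled TPM against 16.1 to 19.3. The 6 adipocyte markers checked (ADIPOQ, FABP4, PLIN1, LPL, LEP and CIDEC) were detected in every library, with a median of 1788 rescaled TPM.

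Chemokines are small secreted proteins that guide white blood cells along gradients through receptors of the G protein-coupled type. Interleukins are secreted signals between cells, read by paired receptor chains that pass the signal on through JAK kinases and STAT factors, or, in the IL-1 and IL-17 families, through adaptors that lead to NF-kB. In fat, adipocytes, fibroblasts, vessels and resident macrophages are known sources of both.

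The chemokine families are named after the spacing of the first cysteines of the mature protein, adjacent in CC and parted by 1 residue in CXC chemokines. The coding bases around this pair were read from Sscrofa11.1 with the RefSeq annotation for the 14 CCL genes and 6 of the 7 CXCL genes of the table, and the CCL genes had adjacent codons while these CXCL genes had 1 codon between them. Windows of 30 bases, 5′ to 3′ on the coding strand, are shown for 5 of the most abundant chemokines, and for CXCL8 and CXCL10, which differ from CXCL12 in level and spread. Cysteine codons are in capitals.
CXCL12 (chr14:91520793-91520822, plus strand): ctgagctacagaTGCcctTGCcgattcttt
CXCL10 (chr8:71695265-71695294, minus strand): agaactgttcgcTGTaccTGCatcaagatc
CXCL8 (chr8:69933830-69933859, plus strand): gcagaacttcgaTGCcagTGCataaatacg
CCL4 (chr12:39479909-39479938, minus strand): cctcccacctccTGCTGCttcacatacacc
CCL2 (chr12:40799067-40799096, minus strand): tctccagtcaccTGCTGCtatacacttacc
CCL14 (chr12:39615135-39615164, plus strand): caacctactgatTGCTGCttcacccacctg
CCL19 (chr10:32111478-32111507, plus strand): gatgctgaagacTGCTGCctgtctgtgact
In CXCL8 the codons just before the first cysteine spell glutamate, leucine and arginine, the mark of CXC chemokines that draw neutrophils, and the other CXCL genes read here did not have them.

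Ligands were examined first, and a few of them held most of the signal. Over the 49 ligands the mean rescaled TPM had a median of 3.99, against 16.7 over all named nuclear genes (0.875 and 3.30 TPM as deposited). The ligand with the highest mean, CXCL12, held 19.3% of the summed ligand level, the top 5 held 65.5% and the top 10 held 87.4%. The ligand sum was 1851, 2223, 1890, 1598, 1428 and 2352 rescaled TPM in replicates 1 to 6, with the lowest sums in replicates 4 and 5.

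CXCL12, the chemokine that retains stem cells and leukocytes in marrow and stroma, led at 365 ± 139 rescaled TPM (SD, n = 6), or 75.8 ± 56.3 TPM as deposited. In replicates 1 to 6 it was 485, 481, 509, 224, 241 and 249 rescaled TPM. The libraries fell apart into replicates 1 to 3, which were high, and replicates 4 to 6, with no value between 249 and 481. CCL4, a macrophage inflammatory protein, followed at 297 ± 148, with 186, 194, 281, 568, 199 and 352 rescaled TPM. Its highest library was replicate 4, whereas as deposited the highest was replicate 6 (46.5, 46.8, 73.5, 18.97, 9.43 and 92.7 TPM). The means of CXCL12 and CCL4 differed by less than their SDs. Within libraries CXCL12 was above CCL4 in replicates 1, 2, 3 and 5 and below it in replicates 4 and 6.

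CCL2, the monocyte chemoattractant, had 154, 351, 138, 94.2, 157 and 512 rescaled TPM, mean 234 ± 162, and was high in replicates 2 and 6. CCL14, a CC chemokine that binds CCR1, had 193, 221, 309, 43.8, 25.1 and 513, mean 217 ± 181. Replicates 4 and 5 were far below the other 4 for CCL14, and replicate 6 was the highest for both genes. CXCL2, of the neutrophil-drawing kind, had 146, 179.5, 60.7, 23.9, 83.5 and 73.2, with replicates 1 and 2 high and replicate 4 lowest. The order of CCL4, CCL2 and CCL14 changed between libraries. Of these genes CCL14 was highest in replicates 1, 3 and 6, CCL2 in replicate 2 and CCL4 in replicates 4 and 5. As deposited their means ran the other way, at 48.0 TPM for CCL4, 50.8 for CCL2 and 53.4 for CCL14.

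Among interleukins, IL33 and IL15 were the most abundant ligands. IL33, an alarm signal stored in the nuclei of stromal and endothelial cells, had 161, 244, 58.3, 63.5, 85.5 and 139 rescaled TPM, mean 125 ± 71.5. IL15, which sustains NK cells and memory T cells, had 69.1, 78.6, 102, 148, 153 and 69.5, mean 103 ± 38.4. IL33 was highest in replicates 1 and 2, while IL15 was highest in replicates 4 and 5, which did not overlap with the other 4. As deposited the order was the opposite, with 4.95 and 7.22 TPM in replicates 4 and 5 and 17.3 to 26.8 in the others. CCL19, the lymph node chemokine that binds CCR7, was steadier at 95.8 ± 23.7, with 65.3, 99.02, 101, 95.9, 135 and 78.3. CCL26, an eotaxin that binds CCR3, had 56.99, 19.2, 45.5, 119.8, 132 and 63.8, so replicates 4 and 5 were again above the others and replicate 2 was lowest, whereas as deposited replicate 4 was lowest (14.2, 4.62, 11.9, 4.00, 6.24 and 16.8 TPM). CXCL14, an epithelial and adipose chemokine, closed the top 10 at 47.7 ± 11.13, between 30.9 and 61.4.

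**Figure D1:**
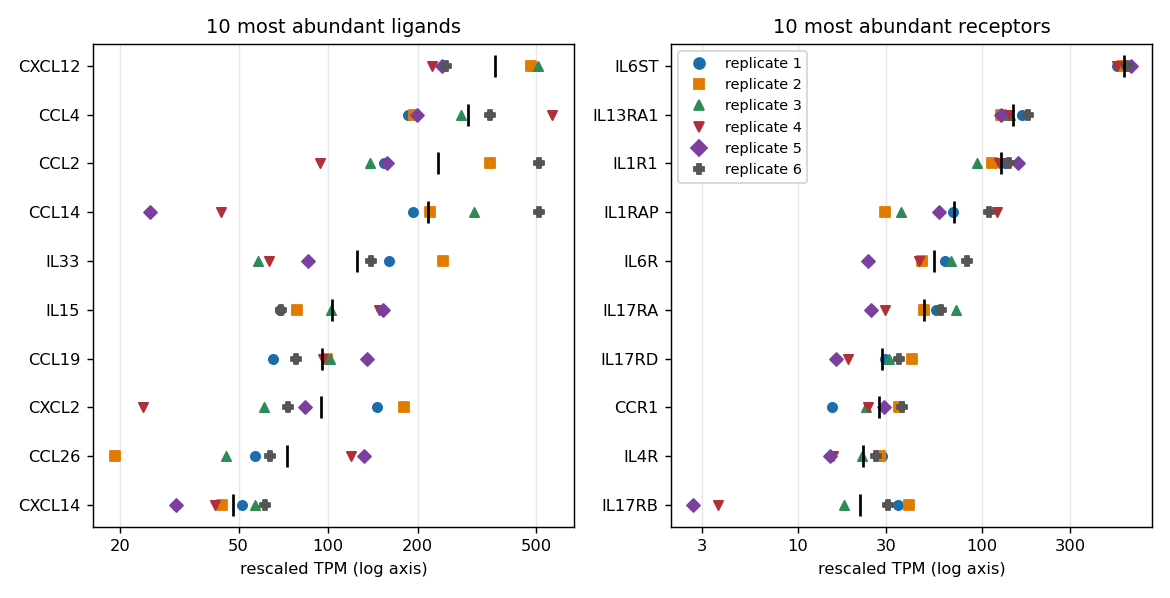
Rescaled TPM (log axis) of the 10 ligands and 10 receptors with the highest mean, with 1 point per pig library and a vertical tick at the mean. IL6ST spans 535 to 638 over all 6 libraries, while CCL14 spans 25.1 to 513 with replicates 4 and 5 lowest.

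The other ligands of the panel were lower. CXCL10, an interferon-induced ligand of CXCR3, had 51.5, 56.00, 30.1, 11.5, 10.1 and 41.5 rescaled TPM, and its replicates 4 and 5 did not reach the others. CXCL9, induced likewise, had 23.3, 10.7, 32.1, 14.2, 10.03 and 4.67, with replicate 6 lowest, so the 2 ligands of the same receptor did not share their order of libraries. CCL5, released by T cells, had 20.9 ± 7.47 and CCL21, the chemokine of lymphatic vessels, 6.81 ± 5.32 rescaled TPM (SD, n = 6). CCL21 had 1.23 in replicate 4 and 0.944 in replicate 5, below the 5.44 to 14.2 of the other 4 libraries. As deposited these were 0.0411 and 0.0447 TPM.

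IL6, the signal of the acute phase, had 12.8, 23.3, 7.71, 11.07, 29.1 and 11.2 rescaled TPM, mean 15.9 ± 8.38, highest in replicates 5 and 2. IL18, an inflammasome product, had 15.2 ± 4.94 rescaled TPM, IL34, a ligand of CSF1R, 18.04 ± 4.22, and IL16, a CD4 ligand, 6.63 ± 2.79 (SD, n = 6). IL17B and IL17D of the IL-17 family were present at 26.04 ± 7.87 and 21.96 ± 4.69, while IL17A, the T cell product for which the family is named, was listed at 0 in every library.

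Several cytokines of helper T cells were among the lowest ligands. IL9, IL17A, IL21, IL22, CCL1 and CCL27 were listed at 0 in all 6 libraries. IL4 was above 0 only in replicate 3, at 0.137 TPM, and IL13 only in replicates 1 and 2, at 0.0437 and 0.0449 TPM. IL5 did not pass 0.0298 TPM in any library. IL2, a T cell growth factor, was an exception at 3.97 ± 2.08 rescaled TPM, with 5.49, 5.56, 2.82, 2.42, 1.22 and 6.31 in replicates 1 to 6. By family, 9 of 14 CC chemokines, 5 of 7 CXC chemokines and 2 of 3 IL-1 family ligands were over 0.1 TPM in every library, near the 67.2% of all named nuclear genes, and 0 of 6 IL-10 family and 0 of 4 IL-12 family ligands were.

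Receptors were examined next, and 1 chain stood far above the rest. The median of the 46 receptors was 4.33 rescaled TPM (0.984 TPM as deposited), similar in size to that of the ligands, and the receptor sum was 1304, 1302, 1267, 1178, 1189 and 1481 rescaled TPM in replicates 1 to 6. IL6ST, the gp130 chain shared by the receptors of IL6, IL11, LIF and oncostatin M, held 45.4% of the summed receptor level. It had 537, 571, 617, 535, 638 and 610.4 rescaled TPM, mean 585 ± 43.4, above 98.6% of named nuclear genes. The 6 libraries lay close together and replicates 4 and 5 were not apart. Its CV (the SD divided by the mean) was 0.0741, while the median CV was 0.357 over the 18 receptors detected in every library and 0.289 over all 9979 such genes. As deposited IL6ST ran 134, 138, 162, 17.9, 30.2 and 161 TPM, so its evenness was seen only after rescaling.

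IL6R and IL11RA, chains that pair with IL6ST, were lower. IL6R, which binds IL6, had 62.7, 46.9, 67.3, 45.5, 23.99 and 82.6 rescaled TPM, mean 54.9 ± 20.5, and IL11RA, which binds IL11, 19.4 ± 4.81. IL31RA, the receptor chain for IL31, is named here only because its gene neighbours that of IL6ST, and it did not pass 0.195 rescaled TPM in any library.

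IL13RA1, which binds IL13 and pairs with IL4R, had 163, 127, 142, 139.8, 126 and 178 rescaled TPM, mean 146 ± 20.8, with a CV of 0.142. Its partner IL4R had 28.6, 27.8, 22.2, 15.5, 14.9 and 26.4, lowest in replicates 4 and 5. IL13RA2, known as a decoy for IL13, had 9.67 ± 4.30. In every library IL13RA1 was thus above IL4R, and IL4R above IL13RA2.

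Of the IL-1 receptor family, the signalling receptor IL1R1 had 132, 114, 93.4, 123, 155 and 140.3 rescaled TPM, mean 126 ± 21.6, with no gap between libraries. Its accessory chain IL1RAP had 69.4, 29.7, 36.1, 121, 58.1 and 109, highest in replicates 4 and 6. The decoy IL1R2 had 1.90 ± 0.887, and IL1RL1, the receptor of IL33, had 7.71 ± 2.70. The IL-17 receptors IL17RA, IL17RD and IL17RB were all over 0.1 TPM in every library. IL17RA had 56.3, 48.3, 71.7, 29.7, 24.9 and 59.9 and IL17RB, which binds IL17B, 34.8, 40.04, 17.8, 3.66, 2.69 and 30.7. IL17RB had the largest CV of the top 10 receptors, 0.743, since replicates 4 and 5 did not pass 3.66 and the other libraries did not go below 17.8.

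Chemokine receptors were low, with a median of 1.36 rescaled TPM over 12 genes. Of these, 4 were over 0.1 TPM in every library, beside 67.2% of all named nuclear genes. CCR1, a receptor of monocytes and neutrophils, had 15.2, 35.5, 23.4, 24.01, 29.3 and 36.7 rescaled TPM. Its highest libraries were replicates 6 and 2, and its lowest was replicate 1. CXCR4, the receptor of CXCL12, had 18.3, 14.4, 6.61, 17.5, 11.9 and 7.19, mean 12.7 ± 5.00, and CCR3, of eosinophils, 10.8 ± 2.34. CCR7, of dendritic cells and naive T cells, did not pass 1.31 in any library, and CXCR5, of B cells, did not pass 0.418. IL10RA, the IL10 receptor chain of white blood cells, had 17.1 ± 6.25 rescaled TPM.

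Detection in every library was then counted, with over 0.1 TPM as deposited as the threshold. It was met in all 6 libraries by 23 of 49 ligands (46.9%) and 18 of 46 receptors (39.1%), while 67.2% of all named nuclear genes met it. The share of the members was below this background. The ligands detected numbered 31, 34, 35, 23, 24 and 33 in replicates 1 to 6, and the receptors 42, 41, 40, 18, 21 and 39. Replicates 4 and 5 thus had the fewest of both.

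The count of receptors moved more with these libraries than that of ligands. In replicates 1, 2, 3 and 6 alone, 38 receptors (82.6%) and 29 ligands (59.2%) were detected throughout, beside 83.1% of all named nuclear genes. Over 0.1 rescaled TPM in all 6 libraries were 40 receptors (87%) and 31 ligands (63.3%), beside 85.1%. The same 0.1 TPM stands for 0.38 to 0.415 rescaled TPM in replicates 1, 2, 3 and 6 but for 2.99 in replicate 4 and 2.11 in replicate 5, so the threshold was several times stricter there. At over 1 TPM, 10 ligands and 5 receptors remained in every library, beside 30.9% of all genes. No library was over 0.1 TPM for 11 ligands (22.4%) and for 2 receptors, IL31RA and IL22RA1, while this held for 10.1% of all genes. A value below the threshold does not show that a transcript was absent.

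**Figure D2:**
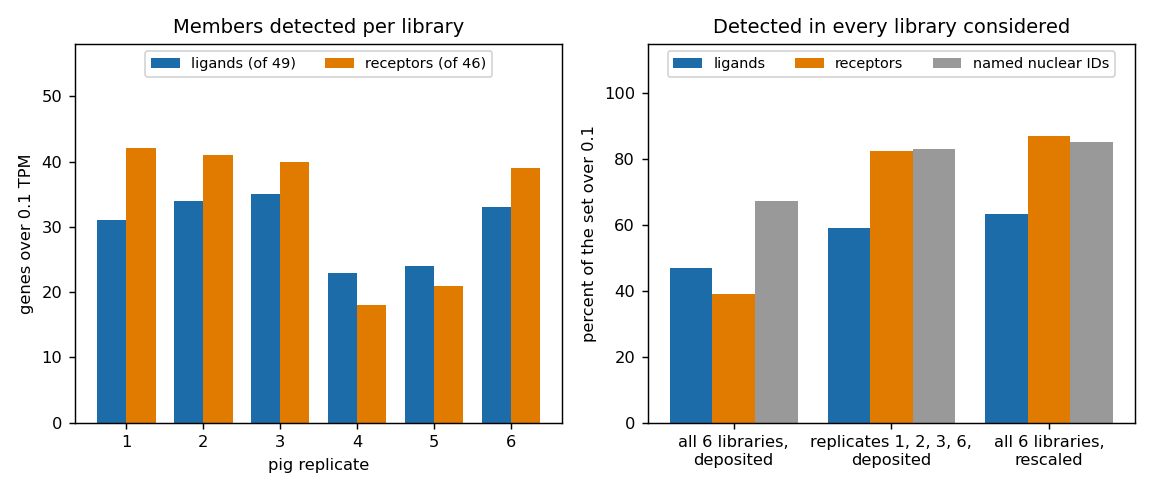
Number of ligands and receptors over 0.1 TPM in each pig library (left) and the percent of ligands, receptors and all named nuclear genes over 0.1 in every library considered (right). Receptors go from 39.1% in all 6 libraries to 82.6% without replicates 4 and 5 and 87% on the rescaled values, ligands from 46.9% to 59.2% and 63.3%.

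Ligands were set beside a receptor they are known to bind, in 30 textbook pairs chosen after the values had been seen. The ligand was above the receptor in all 6 libraries in 10 pairs, the receptor above the ligand in all 6 in 11, and the order was mixed in 9. CCL19 and CCR7 lay farthest apart in the first direction, at 95.8 and 0.874 rescaled TPM. CXCL12 and CXCR4 had 365 and 12.7, IL15 and IL2RB 103 and 5.80, and IL33 and IL1RL1 125 and 7.71 rescaled TPM. These ligands were among the 10 most abundant, and their receptors are known from white blood cells.

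In the other direction, with the receptor above the ligand in all 6 libraries, were IL13, IL4 and IL17A. IL13 and IL13RA1 had 0.0602 and 146 rescaled TPM, and IL4 and IL4R 0.0875 and 22.6. IL17A was listed at 0 beside 48.5 for IL17RA. Likewise IL1A and IL1R1 had 8.72 and 126, IL11 and IL11RA 0.425 and 19.4, and IL10 and IL10RA 1.74 and 17.1. IL2 and IL2RA, at 3.97 and 6.95, and IL5 and IL5RA, at 0.128 and 0.441, were mixed. The pair of IL6 and IL6R, at 15.9 and 54.9, was mixed, since IL6 was above IL6R in replicate 5 (29.1 and 23.99 rescaled TPM). CCL14 was above CCR1 in 5 libraries and below it in replicate 5 (25.1 and 29.3).

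**Figure D3:**
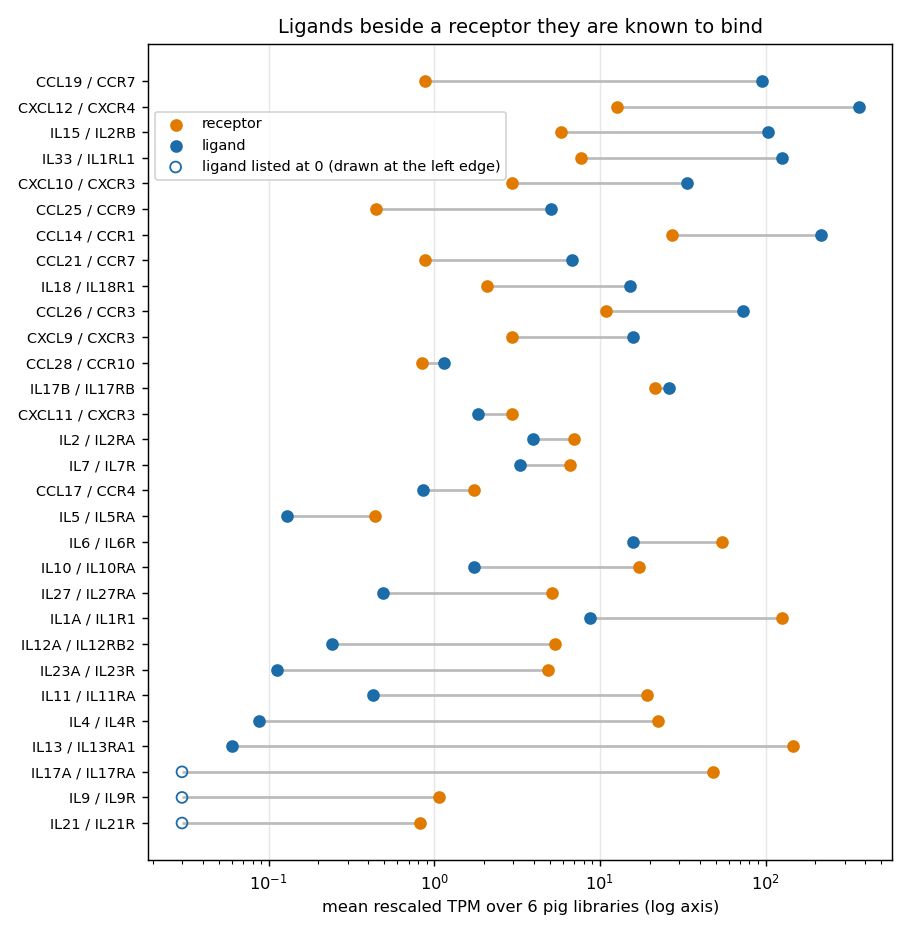
Mean rescaled TPM (log axis) over the 6 pig libraries of the ligands (blue) of 30 pairs and a receptor each is known to bind (orange), sorted by the ratio of ligand to receptor. CCL19 is at 95.8 and CCR7 at 0.874, at the top, while IL13 is at 0.0602 and IL13RA1 at 146 near the bottom, and open circles mark ligands listed at 0.

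Single-library highs were members whose highest library had at least 2 times the second highest in rescaled TPM, with the highest at 1 or more. Of the 76 members that reached 1 rescaled TPM in a library, 6 met this (7.89%), beside 3.45% of all named nuclear genes that reached it. They were IL1A, CXCL8, IL7R and IL29 in replicate 2, IL5RA in replicate 1 and IL10 in replicate 6. Replicate 2 thus held 4 of the 6, and it also held 149 of the 441 such highs of all named nuclear genes, the most of any library. With 6 genes, this is a description of these libraries. After each library was centred on its median, 3 members met it. Centred values are smaller than rescaled ones, so the floor of 1 is stricter on them.

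IL1A, an alarm cytokine released from damaged cells, had 1.88, 7.67, 0.863, 0.0441, 0.0598 and 1.87 TPM as deposited and 7.54, 31.8, 3.30, 1.32, 1.26 and 7.10 rescaled TPM. Replicate 2 was 4.22 times the next library. CXCL8, the chief neutrophil attractant, had 0.460, 2.43, 0.871, 0.0797, 0.158 and 0.774 TPM and 1.84, 10.1, 3.33, 2.39, 3.34 and 2.94 rescaled TPM. Its replicate 2 was 3.02 times the next, and the other 5 libraries lay between 1.84 and 3.34. IL7R, the IL7 receptor chain of T cells, had 7.71, 16.1, 3.06, 3.85, 6.86 and 1.80, and IL29, named for a lambda interferon, had 2.46, 4.98, 1.41, 0.569, 0 and 2.10. In replicate 2 they were 2.09 and 2.02 times the next library, close to the threshold of 2.

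IL10, an anti-inflammatory interleukin, had 0.349, 1.61, 0.928, 1.97, 1.49 and 4.08 rescaled TPM and IL5RA, the IL5 receptor chain of eosinophils and B cells, 1.44, 0.152, 0, 0.542, 0.242 and 0.266. Replicate 6 was 2.08 times the next library for IL10, and replicate 1 was 2.66 times the next for IL5RA, which did not pass 0.361 TPM as deposited. Without that library the mean TPM as deposited went from 2.07 to 0.945 for IL1A, from 0.796 to 0.469 for CXCL8, from 1.26 to 0.731 for IL7R, from 0.322 to 0.171 for IL10 and from 0.0828 to 0.0272 for IL5RA. Just outside the threshold were CCL28 in replicate 6, at 1.99 times the next, and IL18RAP in replicate 4, at 1.92 times.

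**Figure D4:**
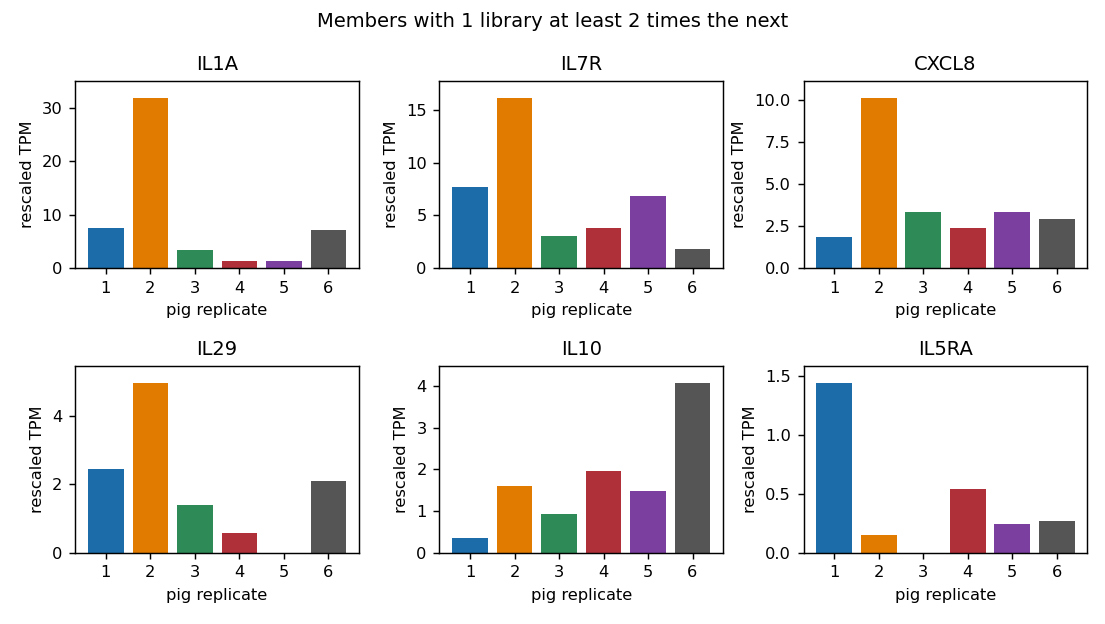
Rescaled TPM in each of the 6 pig libraries (bars from 0, own scale per gene) of the 6 members with 1 library at least 2 times the next. Replicate 2 is highest for IL1A (31.8), IL7R (16.1), CXCL8 (10.1) and IL29 (4.98), replicate 6 for IL10 (4.08) and replicate 1 for IL5RA (1.44).

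Beside the highs of replicate 2, markers of blood cells and of skeletal muscle were read. The T and NK cell list, with 6 of 8 genes found, summed to 73.7 rescaled TPM in replicate 2 and 21.2 to 51.3 in the others. NKG7 gave 42.5 of this sum, and the list's median was 6.94 in replicate 1 and 6.88 in replicate 2. The skeletal muscle list, with 3 of 5 found, summed to 10.98 in replicate 2 and 0.887 to 4.10 in the others. ACTA1 gave 6.36 and TNNT3 2.79 of this sum, while CKM, at 1.83, was higher in replicates 1 and 6 (2.29 and 2.30). The B cell marker MS4A1 had 3.34 in replicate 2 and 0.564 to 1.07 elsewhere. The neutrophil list, with 5 of 7 found, summed to 25.5 in replicate 2 and 10.4 to 292 elsewhere, highest in replicate 5. Of its defining markers ELANE was listed at 0 in every library, MPO did not pass 0.300, S100A8 was highest in replicate 5 (263) and CSF3R was highest in replicate 2 (10.9 against 1.19 to 4.07). The part of these cells in the highs was not tested. Replicate 2 was the highest library for 25 of the 76 members (32.9%) and for 26.9% of all genes, which is near the background.

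Replicates 4 and 5 were then set against the other 4 libraries, on the 72 members over 0.1 rescaled TPM in all 6. Both were below all the others for 31 members (43.1%), beside 49.5% of all named nuclear genes, and above all of them for 3 (4.17%), beside 10%. After each library was centred on its median, 60 members and 11800 genes were over 0.1 in all 6, and of these 31.7% of the members were lower and 21.7% higher, while 25% of the genes were lower and 31.7% higher. As deposited, no member was higher in both. The share of lower members was thus under that of all genes on the rescaled values and over it on the centred values. The median ratio of the means was 0.627 for the members beside 0.675 for all genes.

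A few members lay at the edge of the distribution of all genes. For IL17RB the mean of replicates 4 and 5 was 0.103 of the mean of the others, a ratio that 0.681% of the 12625 genes shared or went below. IL1A had 0.104, CCL14 0.112 and CCL21 0.112, with at most 0.855% of genes at or below. As deposited, IL1A and CCL21 did not pass 0.0598 and 0.0447 TPM in replicates 4 and 5, under the 0.1 TPM of detection. Receptor chains of lymphocytes were not all alike. IL7R had 0.745, while IL2RA, IL23R and IL2RG had 0.167 to 0.188, with at most 3.48% of genes at or below. IL2RA, IL23R and IL2RG did not pass 0.0664 TPM as deposited in replicates 4 and 5, so these ratios rest on values under the threshold. At the other end CCL26 had 2.71, with 1.13% of genes at or above, IL27 had 2.24, IL18RAP 1.91 and IL15 1.88, with at most 3.32% of genes at or above. IL18RAP had 0.0341 and 0.0107 TPM as deposited in replicates 4 and 5, and its replicate 5 overlapped with the others after rescaling. IL15, CCL26 and IL27 were the 3 members above in both libraries, and IL27 did not pass 0.132 TPM as deposited in any.

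Cell type marker lists were read beside this difference, and they did not all go the same way. Lymphatic endothelium markers, 4 of 4 found, summed to 68.2 and 41.5 rescaled TPM in replicates 4 and 5 and 120 to 228 in the others. The T and NK cell list summed to 21.2 and 23.3 against 48.4 to 73.7. Much of this gap was NKG7, with 5.12 and 4.65 against 19.8 to 42.5. CD8A was also below, while CD3D, CD3E, CD2 and CD4 overlapped. The list's median was 3.05 and 3.19 against 4.19 to 6.94. The 7 macrophage markers summed to 365 and 216 against 465 to 603, and the endothelium list, 4 of 5 found, to 605 and 736 against 1034 to 1322. CD163 and MRC1 overlapped with the others in replicate 4, and the remaining macrophage markers were below. PECAM1 carried the endothelium sum, and TEK overlapped. Of all named nuclear genes 49.5% were below in both replicates 4 and 5. The sum of the neutrophil list went the other way without overlap, with 99.6 and 292 against 10.4 to 53.7, carried by S100A8. Its median of 1.19 and 2.61 overlapped with the 2.27 to 4.07 of the others. The sum of the 5 stroma markers was 5182 and 5429 against 8142 to 15301, carried by COL1A1 and DCN, while their median of 143 and 208 overlapped with the 149.8 to 242 of the others. The sum of the 6 adipocyte markers, carried by FABP4, overlapped at 26565 and 35962 against 17928 to 32737, while their median of 1481 and 1592 was below the 1691 to 2071 of the others. The skeletal muscle list had 0.945 and 0.887 against 2.19 to 10.98, and the B and plasma cell, mast cell and epithelium lists overlapped. The part of cell composition in the members' levels was not tested.

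**Figure D5:**
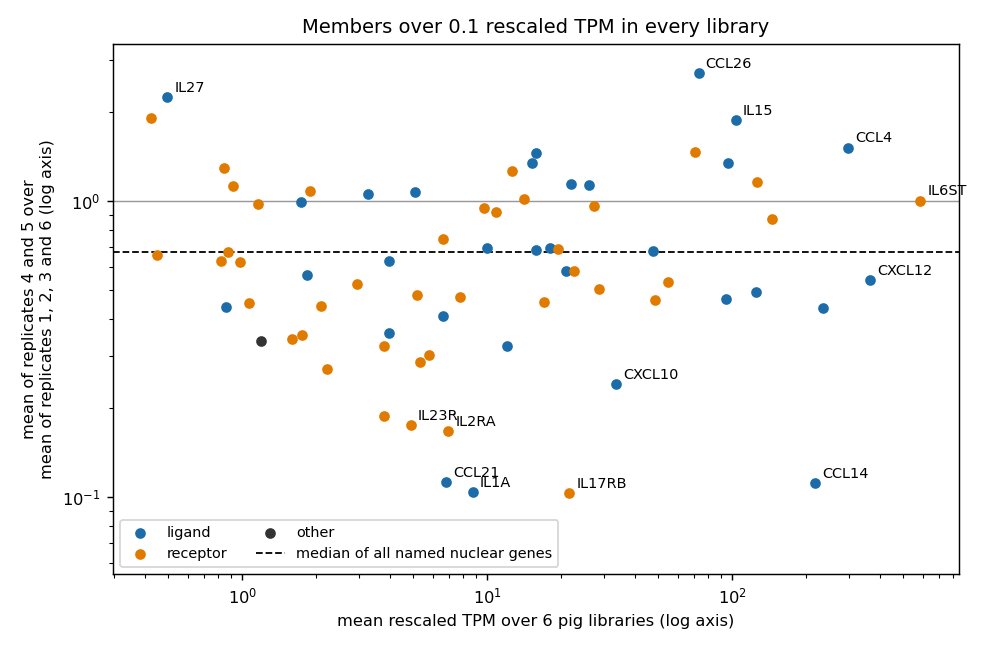
Mean of replicates 4 and 5 over mean of replicates 1, 2, 3 and 6 (log axis) against the mean rescaled TPM (log axis) of the 72 members over 0.1 rescaled TPM in every pig library. The dashed line marks the median of all named nuclear genes, 0.675, and IL17RB, IL1A, CCL14 and CCL21 lie at 0.103 to 0.112 while CCL26 lies at 2.71. IL1A and CCL21 were under 0.1 TPM as deposited in replicates 4 and 5.

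Other genes of the same pathways were read from lists. Over all named nuclear genes, 67.2% were over 0.1 TPM in every library and the median was 16.7 rescaled TPM. Of 12 other chemokine genes 10 were found, 7 of them in every library, with a median of 15.7 rescaled TPM, near this background. The scavenging receptors ACKR4, which takes up CCL19 and CCL21, and ACKR3, which takes up CXCL12, had 239 ± 111 and 146 ± 57.1 rescaled TPM (SD, n = 6). ACKR4 was above CCR7 and ACKR3 above CXCR4 in all 6 libraries. Among 12 other cytokines 7 were found, and 1 was in every library, CSF1, the macrophage growth factor, at 75.9 ± 45.4. IFNG, the cytokine that induces CXCL9 and CXCL10, had 0.870 ± 0.579. CSF1 was above IL34, the other ligand of CSF1R, in every library.

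Of 11 other cytokine receptors 9 were found and 7 were in every library, with a median of 56.7 rescaled TPM. LIFR and OSMR, which pair with IL6ST, had 185 ± 30.9 and 51.9 ± 18.4. Signalling genes were found for 28 of 29 and detected in every library for 25, with a median of 48.3 rescaled TPM. Both lists stand beside 67.2% in every library and a median of 16.7 rescaled TPM over all named nuclear genes. JAK1, which serves IL6ST and the IL4 and IL13 receptors, had 389.7 ± 94.4, NFKBIA, the inhibitor of NF-kB, 227 ± 47.1, and STAT3 149.7 ± 33.8. JAK3, which works with IL2RG, had 5.75 ± 2.80, beside 3.78 ± 2.74 for IL2RG.

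The position of the genes was read from the RefSeq annotation of Sscrofa11.1, in which all 96 symbols were found. In all, 46 members lay in 15 clusters with gaps of at most 250000 bases. Neighbours often differed in level. On chromosome 16, IL31RA (chr16:34987399-35071367) had 0.111 rescaled TPM and the adjacent IL6ST (chr16:35101304-35151832) 585. On chromosome 10, CCL21, CCL19 and CCL27 lay within 55.5 kb with IL11RA, and had 6.81, 95.8, 0 and 19.4 rescaled TPM in that order. On chromosome 12, CCL4, CCL14, CCL16 and CCL5 lay within 179.9 kb and were all in every library, whereas CCL1 was listed at 0 beside CCL8 and CCL2. CC chemokine genes are related copies, so how reads were divided among the closest of them is uncertain. IL5, IL13 and IL4 on chromosome 2 did not pass a mean of 0.128, and IL10, IL19, IL20 and IL24 on chromosome 9 did not pass 1.74.

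The NF-kB consensus was searched in promoters on both strands, from 250 bases before to 50 bases after each gene start, because IL6, CXCL2 and CXCL10 are known targets of this factor. It was found in 13 of 49 ligands (26.5%), 8 of 46 receptors (17.4%) and 16.4% of 19559 protein-coding genes. Windows of 60 bases before the start are shown for these 3 ligands, on the strand of the gene, with the match in capitals.
IL6 (chr9:91506324-91506383, plus strand): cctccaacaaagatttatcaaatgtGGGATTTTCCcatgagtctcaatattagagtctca
CXCL2 (chr8:70157116-70157175, plus strand): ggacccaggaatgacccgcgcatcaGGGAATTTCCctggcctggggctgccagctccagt
CXCL10 (chr8:71696095-71696154, minus strand): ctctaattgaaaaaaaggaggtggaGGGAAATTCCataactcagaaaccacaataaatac
The match began 72, 112 and 181 bases before the start in these genes. IL1A and CXCL8 held no match in this window. The 3 genes did not share their order of libraries, since IL6 was highest in replicate 5, CXCL2 and CXCL10 in replicate 2, and CXCL10 alone of them had both replicates 4 and 5 below the other 4.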

How the data were processed

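Total RNA of 6 pig backfat samples was sequenced from stranded, ribosomal RNA-depleted libraries on an Illumina platform. TPM per Ensembl gene were deposited by the authors as 1 table per species, and the submitters' processing notes name kallisto 0.43.0 and, for pig, Sscrofa11.1. The tables hold no read counts, so the depth of each library is unknown and low values have no counting error. The 2 rat pools were not used, since the name table covers pig IDs only.

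Symbols were taken from the name table by ID. Ligand or receptor was assigned by textbook role. A gene counted as detected above 0.1 TPM, as in the study's methods. Rescaled TPM set the named nuclear genes of each library to a total of 1000000, and median-centring gave each library the same median. Values are means ± SD over pigs. No test was run and no p-value is given. Named genes were the 10 ligands and 10 receptors of highest mean rescaled TPM, every single-library high, and a panel of 33 genes, 5 of them without a value. That gave 38 genes, to which others were added after their values were seen. The members, lists and rules were chosen with earlier results of these data known. Scripts in Python 3.11.15 (pandas 2.3.3) were tested on simulated data, and sequences were read with samtools 1.23.1. The values of 1 receptor and the sequence window of 1 ligand are not reported here.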

Additional observations from a re-analysis of the deposited data

Results flagged for a closer look

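Each of the 38 named genes was examined on the deposited and the rescaled values for a library far from the other 5. This held for 6 of 76 sets of values, from 4 genes. Chance marks about 1 in 20 independent sets, but that rate cannot be applied here. The named genes include every single-library high by rule, the 4 genes were all such highs, and the deposited and rescaled values of a gene are linked.

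IL1A lay apart in replicate 2, at 7.67 TPM as deposited against 0.0441 to 1.88 in the others, and at 31.8 rescaled TPM against 1.26 to 7.54. CXCL8 lay apart in the same library, at 2.43 TPM against 0.0797 to 0.871, and at 10.1 rescaled TPM against 1.84 to 3.34. Both are signals of acute inflammation. Replicate 2 also had the highest summed level of T and NK cell markers, 73.7 rescaled TPM, of which NKG7 gave 42.5, while the list's median was highest in replicate 1. The skeletal muscle marker sum of 10.98 was the highest there too, carried by ACTA1 and TNNT3, while CKM was higher in replicates 1 and 6. The neutrophil marker sum of 25.5 was within the 10.4 to 292 of the other libraries, where S100A8 sets it, and CSF3R was highest in replicate 2 at 10.9. The part of these cells was not tested.

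IL5RA lay apart in replicate 1 as deposited, at 0.361 TPM against 0 to 0.0701. IL10 lay apart in replicate 6 as deposited, at 1.08 TPM against 0.0657 to 0.387. Neither lay apart by this measure on the rescaled values, where IL10 was at 4.08 against 0.349 to 1.97 and IL5RA at 1.44 against 0 to 0.542. The files show no depth for these low values.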

How the results depend on the processing

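No paired analysis was possible because the results come from no test and the pigs form 1 group.

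The count of ligands detected in every library was 10 at over 1 TPM, and that of receptors 5 at over 1 TPM, 40 at over 0.1 rescaled TPM and 38 without replicates 4 and 5. These follow from the threshold itself and from the low named nuclear share of replicates 4 and 5. Leaving out 1 library gave 23 to 24 ligands and 18 to 21 receptors. The median level of ligands was 3.99 in rescaled TPM and 2.31 TPM over only those members above 0.1 TPM in a library, and that of receptors 4.33 in rescaled TPM, which by construction divide a library's total among fewer genes. Leaving out 1 library gave 0.776 to 1.04 TPM for ligands and 0.754 to 1.17 TPM for receptors.

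Single-library highs numbered 3 after median-centring, 2 with a step of 3 times and 3 with a floor of 5 rescaled TPM, beside 5 as deposited. The floor of 1 is stricter on deposited and median-centred values, which are smaller. IL10 and IL29 had median-centred means of 0.362 and 0.346, beside 1.74 and 1.92 rescaled TPM. The loss under median-centring was not tested at a matched floor. Alternatives chosen after seeing the data gave 7 highs without replicates 4 and 5, 25 to 40 members with both replicates 4 and 5 on 1 side of the others, and 22 to 28 members highest in replicate 2. Of the 38 named levels, rescaling moved 38 by more than 1 SD, median-centring 1 (CCL26, 9.64 to 17.0 TPM), and leaving out a library 0 of 228. The counts for rescaling and for leaving out a library were fixed in advance. Rescaling multiplies every value, and leaving out 1 of 6 libraries cannot move a mean by 1 SD. Neither count shows how stable a level is. The low members are the least certain, because no depth is known.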

Other observations

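Platelet and dendritic cell genes outside the naming rule were also present. PPBP, a CXC chemokine stored in platelets, had 33.6 ± 16.8 rescaled TPM (SD, n = 6), with 43.9, 48.9, 31.0, 16.3, 11.4 and 50.3 in replicates 1 to 6, so replicates 4 and 5 were lowest. EBI3, which pairs with IL27, had 5.21 ± 2.82 rescaled TPM, while IL27 itself had 0.494 ± 0.253. XCR1, the receptor of cross-presenting dendritic cells, had 3.09 in replicate 2 and 0.386 to 1.102 in the others. IL4I1, the oxidase that the naming rule brought in, had 1.19 ± 0.622 rescaled TPM and was over 0.1 TPM in replicates 1, 2, 3 and 6.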
